A study of Ovis aries with 41 samples.

Results

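Collagen genes were followed along the tail of 7 rams. The members were all 43 genes of the count table of 31182 genes whose symbol has the form COL, number, A, number, and they were grouped as 11 fibrillar collagens, 6 collagens of the basement membrane, 9 FACIT collagens (fibril-associated collagens with interrupted triple helices) and 17 other collagens. RNA was sequenced from tail skin that was taken after death from adult rams of the Improved Jezersko–Solčava breed, a Slovenian sheep breed in which tail length varies. The 4 A/A rams were homozygous for the ancestral allele of the HOXB13 promoter, which goes with a short tail, and the 3 D/D rams for the derived allele, which carries an insertion and goes with a long tail. Every ram was sampled at 3 places, the tail base, the mid-tail and the tip, with 2 libraries from each place but only 1 from the mid-tail of ram 871869 (D/D), which makes 41 libraries. The labels do not say whether the libraries of a place came from 1 piece of skin. Their counts were added up so that each ram counted once, and levels are given as CPM, counts per 1000000 counts of a ram sum after TMM normalization. Values of the A/A rams are listed in the order of rams 835507, 871772, 871784 and 871932, and those of the D/D rams in the order 871787, 871868 and 871869.

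Collagens are secreted or membrane-bound proteins with a triple helix of 3 chains, and they make up most of the matrix of the dermis. Fibrillar collagens of types I, III and V form the cross-banded fibrils that give skin its strength, and FACIT collagens sit on the surface of such fibrils. Type IV collagen forms the sheet of the basement membrane, types VII and XVII tie the epidermis to the dermis below it, and type VI collagen forms beaded filaments around cells.

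COL1A1, COL1A2 and COL3A1 held 76.9% of all collagen counts, which also depend on transcript length, so levels were compared within a gene and not between genes. All libraries held counts of 35 of the 43 collagens. The filter on low counts passed 39 collagens for the comparisons along the tail, and the 4 that were not tested were COL9A2, COL9A3, COL10A1 and COL25A1, with 24, 52, 6 and 18 counts over all 41 libraries. COL10A1, the collagen of hypertrophic cartilage, was listed at 0 in 16 of the 21 ram sums, and COL2A1, the main cartilage collagen, reached at most 1.62 CPM. Between libraries of the same ram and position, COL1A1 differed by a median of 1.34-fold and by up to 2.28-fold over 20 pairs.

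Library totals ranged from 9177395 to 23431409 counts. The A/A ram 835507 stood apart at the mid-tail and tip, where its summed level of 5 wool follicle markers was 2516 and 789 CPM, against 10489 CPM at its base and 9500 to 25257 CPM at these positions in the other rams. At both positions its levels of COL1A1, COL1A2, COL3A1, COL5A2 and COL11A1 were the lowest of the 7 rams, so the changes of these 5 genes at the tip over 7 rams are also given without it. The 5 tested wool follicle markers had log2 fold changes below 0 from base to tip over 7 rams, and 0 of them passed the test or had an unadjusted p under 0.05. These log2 fold changes were not recomputed without ram 835507. Their summed level was higher at the tip than at the base in rams 871772 (9565 and 10593 CPM), 871784 (12724 and 14642 CPM), 871787 (12077 and 13017 CPM) and 871869 (16803 and 25257 CPM). Besides ram 835507, it was lower at the tip in rams 871932 (16438 and 12998 CPM) and 871868 (16667 and 13881 CPM). The part of wool follicles in the collagen results was not tested.

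From the base to the tip, 7 of the 39 tested collagens passed the test over all 7 rams at an adjusted p under 0.05, against 5.09% of the 19029 genes tested. Each ram was compared with itself, by edgeR's quasi-likelihood test with the ram as a block and Benjamini-Hochberg adjustment over all genes. COL15A1, COL19A1 and COL6A5 rose, and COL1A1, COL3A1, COL5A1 and COL6A6 fell. The call of COL19A1 is limited, since it entered the test through the positions where it was higher. By class, 3 fibrillar collagens fell, 1 FACIT collagen rose, 2 of the other collagens rose and 1 fell, and no basement membrane collagen was called. The median log2 fold change was 0.09 over the 39 collagens and -0.02 over all genes. It was -0.53 for the 11 fibrillar collagens, of which 8 were below 0, and 0.26 for the 7 tested FACIT collagens, of which 7 were above 0. The 6 basement membrane collagens had a median of 0.07 and the 15 other collagens one of 0.29. In bulk skin, fewer cells of a type and less RNA per cell cannot be told apart. The count of 7 rested on the pairing of positions within a ram, since the same test without the ram as a block called 0 collagens and 0.725% of all genes. At an unadjusted edgeR p under 0.05 there were 17 collagens and 18.5% of all genes. DESeq2 called 14 collagens and 7.99% of all genes on the ram sums, and 17 collagens and 14.3% of all genes on single libraries, and without the filter on low counts edgeR called 11 collagens and 3.67% of all genes. It was 4 without the A/A ram 871784, of which 1 was lower at the tip, and 5 without the D/D ram 871869, of which 0 were lower.

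The collagens together took a smaller share of all counts toward the tip, as a description. COL1A1, COL1A2 and COL3A1 held 1.52% ± 0.354 (SD, n = 4) of the counts in the base of the A/A rams, then 0.910% ± 0.538 in the mid-tail and 0.728% ± 0.403 in the tip. In the D/D rams they held 1.25% ± 0.376 (SD, n = 3), 0.968% ± 0.299 and 0.675% ± 0.366. The FACIT collagens held 0.0423% ± 0.00483 at the base and 0.0626% ± 0.00384 at the tip of the A/A rams (SD, n = 4), and these values did not overlap. This share mainly follows 1 gene, COL12A1, with 2.38% of all collagen counts, against 0.58% for COL14A1 and 0.55% for COL16A1. In the D/D rams the FACIT shares were 0.0389% ± 0.00405 and 0.0404% ± 0.0112 (SD, n = 3), with overlapping values. No test was run on these shares.

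**Figure D1:**
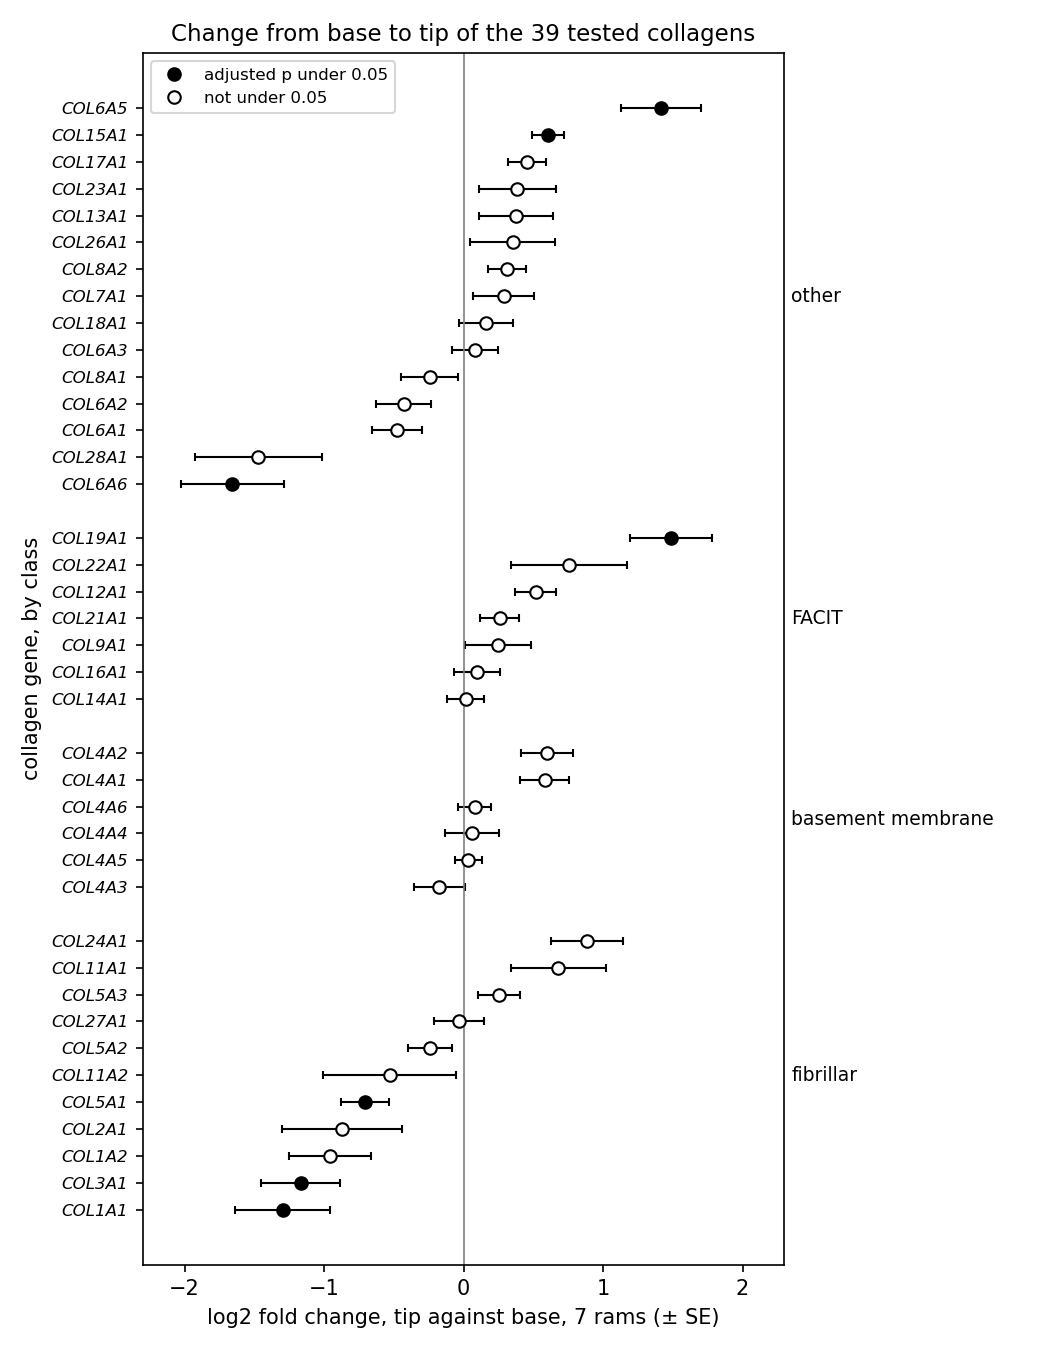
Log2 fold change from base to tip in the fit over 7 rams (x axis) of the 39 tested collagens (y axis), grouped by class, with bars of 1 SE and filled points for an adjusted p under 0.05. COL1A1 has the lowest value of the fibrillar collagens at -1.30, and all 7 FACIT collagens lie above 0.

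COL1A1 encodes the alpha 1 chain of type I collagen, the main collagen of skin (chromosome 11, bases 36191118 to 36208942 of ARS-UI_Ramb_v3.0). At the base it stood at 5330.4, 8581, 10018 and 8347 CPM in the A/A rams and 4336, 7859.5 and 7487 CPM in the D/D rams. At the tip it stood at 441, 5485, 3939 and 5294 CPM in the A/A rams and 2544, 5699.8 and 2497 CPM in the D/D rams. Every ram was lower at the tip than at its base, and the A/A ram 835507 was lower by far than the other rams at the tip. Both of its tip libraries were low, with 483 and 369 CPM. The levels of all rams at the 2 positions still overlapped, since the base of the D/D ram 871787 was below the tip of 3 rams. COL1A1 fell over the 7 rams with a log2 fold change of -1.30 ± 0.34 (SE) and an edgeR adjusted p of 0.0344. Without ram 835507 the log2 fold change was -0.91 with an adjusted p of 0.0457. The call was lost without the A/A ram 871784 (adjusted p 0.0693), the A/A ram 871932 (adjusted p 0.0649), the D/D ram 871787 (adjusted p 0.0508) or the D/D ram 871869 (adjusted p 0.0829), with a range of 0.0387 to 0.0829 over the 7 fits that left out 1 ram.

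COL1A2, the partner chain of COL1A1 in type I collagen (chromosome 4, bases 12552707 to 12589620), moved in the same direction without passing the test. Its levels were 3000.5, 4323, 4761 and 3031 CPM in the A/A rams and 1940.5, 3433 and 4047 CPM in the D/D rams at the base. They were 463, 3017, 2205 and 2878 CPM in the A/A rams and 1485, 3042 and 1274 CPM in the D/D rams at the tip. All 7 rams were lower at the tip, the A/A ram 871932 only slightly. Over 7 rams the log2 fold change was -0.95 ± 0.29 (SE) with an edgeR adjusted p of 0.0697, and without ram 835507 it was -0.64 (adjusted p 0.134).

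COL3A1, whose chain forms type III collagen and shares fibrils with type I (chromosome 2, bases 120362888 to 120403111), fell as well. It stood at 2511, 4330.3, 4289 and 2793 CPM in the A/A rams and 1810.2, 2887 and 3451 CPM in the D/D rams at the base. It stood at 292, 2309, 1735 and 2223 CPM in the A/A rams and 1165, 2307 and 1078 CPM in the D/D rams at the tip. The tip was below the base in 7 of 7 rams, and ram 835507 was again the lowest at the tip. Its log2 fold change was -1.17 ± 0.28 (SE) with an edgeR adjusted p of 0.0224. Without ram 835507 it was -0.86 with an adjusted p of 0.0287, and the call was lost without the A/A ram 871784 (adjusted p 0.0619) or the D/D ram 871869 (adjusted p 0.0687).

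COL5A1 encodes a chain of type V collagen, which sits inside type I fibrils and sets their width (chromosome 3, bases 1554466 to 1693746). Its levels were 169, 239, 262 and 234 CPM in the A/A rams and 176, 231 and 195 CPM in the D/D rams at the base. Its levels were 75.5, 172, 137 and 163 CPM in the A/A rams and 107, 188 and 109 CPM in the D/D rams at the tip. COL5A1 was lower at the tip in 7 of 7 rams, with a spread between rams smaller than that of COL1A1, and fell with a log2 fold change of -0.71 ± 0.17 (SE) (edgeR adjusted p 0.0216). That call was lost without the A/A ram 871932 (adjusted p 0.0527) or the D/D ram 871869 (adjusted p 0.0623). The other type V chains did not pass the test, with log2 fold changes of -0.24 ± 0.16 (SE) for COL5A2 (edgeR adjusted p 0.451) and 0.25 ± 0.15 (SE) for COL5A3 (edgeR adjusted p 0.397). Without ram 835507 the log2 fold change of COL5A2 was -0.079 with an adjusted p of 0.804. COL5A2 lies next to COL3A1, 16742 bases away. Across the 21 ram sums the ratio of COL5A2 to COL3A1 varied 4.09-fold, while the ratio of the neighbours COL6A1 and COL6A2 varied 1.38-fold and that of COL4A1 and COL4A2 1.53-fold. The highest ratio of COL5A2 to COL3A1, 0.291 against a median of 0.104, was that of the tip of ram 835507.

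COL11A1, a chain of type XI collagen, which joins fibrils of cartilage and other tissues, depended on 1 ram. It stood at 16.9, 35.0, 11.2 and 18.7 CPM in the A/A rams and 7.83, 14.3 and 14.0 CPM in the D/D rams at the base. It stood at 5.30, 39.3, 30.8 and 39.9 CPM in the A/A rams and 27.1, 19.9 and 34.5 CPM in the D/D rams at the mid-tail. It stood at 4.38, 43.5, 30.4 and 43.7 CPM in the A/A rams and 23.5, 38.0 and 26.5 CPM in the D/D rams at the tip. At the tip 6 of 7 rams were higher than at the base and ram 835507 was lower. Over 7 rams the log2 fold change at the tip was 0.68 ± 0.34 (SE) with an edgeR adjusted p of 0.296. Without ram 835507 COL11A1 passed the test, at the tip with a log2 fold change of 1.13 (adjusted p 0.00175, in a range of 0.00175 to 0.563 over the 7 fits that left out 1 ram) and at the mid-tail with 1.05 (adjusted p 0.0173).

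The remaining fibrillar collagens had fewer counts. COL24A1, a fibrillar collagen known from developing bone, was 5.09, 2.72, 3.19 and 1.49 CPM at the base and 14.0, 7.79, 4.80 and 6.06 CPM at the tip of the A/A rams. In the D/D rams it was 5.21, 1.69 and 2.13 CPM at the base and 6.004, 3.73 and 1.24 CPM at the tip. All 4 A/A rams and the D/D rams 871787 and 871868 were higher at the tip. COL24A1 was just outside the threshold over 7 rams, with a log2 fold change of 0.88 ± 0.26 (SE) and an edgeR adjusted p of 0.0551, and without the D/D ram 871869 it was 1.10 with an adjusted p of 0.0193, in a range of 0.0193 to 0.159 over the 7 fits that left out 1 ram. COL2A1, COL11A2 and COL27A1 had log2 fold changes of -0.87, -0.53 and -0.03 with edgeR adjusted p-values of 0.292, 0.610 and 0.945.

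**Figure D2:**
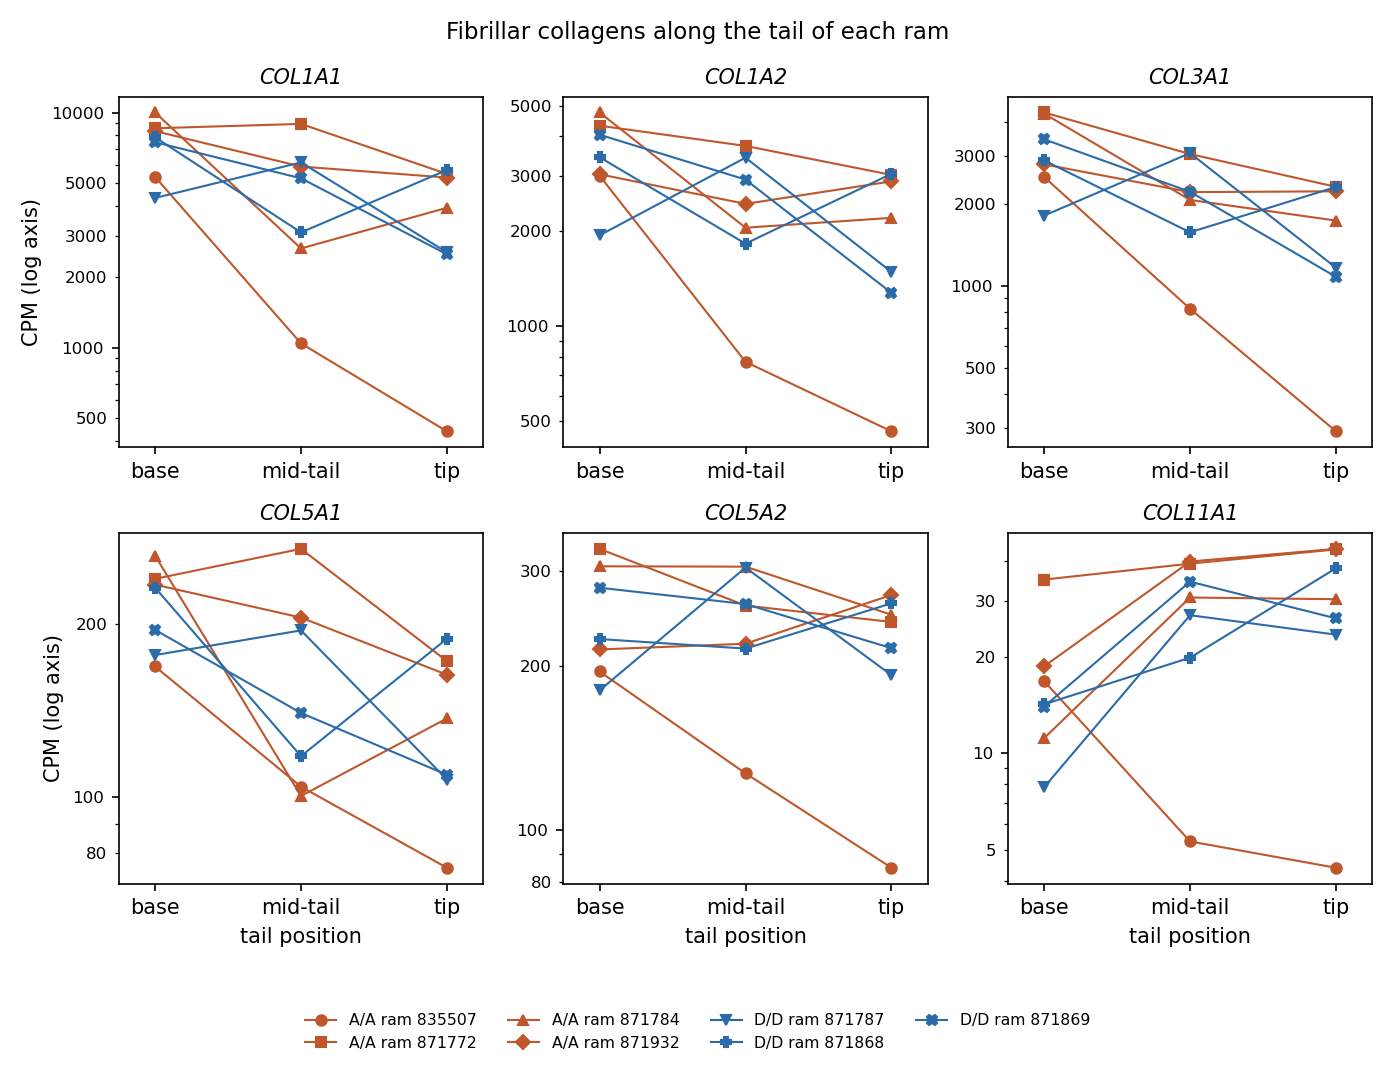
Levels of 6 fibrillar collagens in CPM (y axis, log scale) at the base, mid-tail and tip (x axis), with 1 line per ram in orange for A/A and blue for D/D. The A/A ram 835507 runs to the lowest point of every panel at the tip, at 441 CPM for COL1A1 and 4.38 CPM for COL11A1.

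None of the 6 collagens of the basement membrane passed the test. COL4A1 and COL4A2 encode the chains of the type IV collagen found in all basement membranes, including those of vessels, and lie 127 bases apart on chromosome 10. COL4A1 was 58.5, 95.7, 63.1 and 122 CPM in the A/A rams and 70.1, 136 and 80.2 CPM in the D/D rams at the base. It was 66.7, 124, 109 and 139 CPM in the A/A rams and 124, 261 and 122 CPM in the D/D rams at the tip. All 7 rams were higher at the tip for both genes, with the D/D ram 871868 highest at the base and at the tip. Log2 fold changes were 0.58 ± 0.17 (SE) for COL4A1 with an edgeR adjusted p of 0.0609, and 0.60 ± 0.19 (SE) for COL4A2 with one of 0.0704. COL4A5 and COL4A6, whose chains form the type IV collagen of the epidermal basement membrane, changed by 0.03 and 0.08 on the log2 scale (edgeR adjusted p 0.896 and 0.783). COL4A3 and COL4A4, best known from the kidney, changed by -0.17 and 0.06 (edgeR adjusted p 0.668 and 0.909).

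COL17A1, a transmembrane collagen of the hemidesmosomes of basal keratinocytes, was 651, 329, 361 and 510.3 CPM in the A/A rams and 394, 451 and 229 CPM in the D/D rams at the base. It was 862, 703, 504 and 668 CPM in the A/A rams and 626, 511 and 231 CPM in the D/D rams at the tip. The tip was the higher position in 7 of 7 rams, by little in the D/D ram 871869, and the log2 fold change was 0.45 ± 0.14 (SE) with an edgeR adjusted p of 0.0656. Beside this, 6 of 6 tested keratinocyte markers had log2 fold changes above 0 and 2 of them rose, and their summed level ranged from 11838 to 24640 CPM at the base and 19493 to 34473 CPM at the tip of the A/A rams, and from 11709 to 21394 CPM and 16651 to 39899 CPM in the D/D rams. The part of keratinocytes in the level of COL17A1 was not tested. COL7A1, the collagen of the anchoring fibrils, had a log2 fold change of 0.29 ± 0.22 (SE) with an edgeR adjusted p of 0.527, and without ram 835507, its highest at the tip, 0.25 (adjusted p 0.637).

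**Figure D3:**
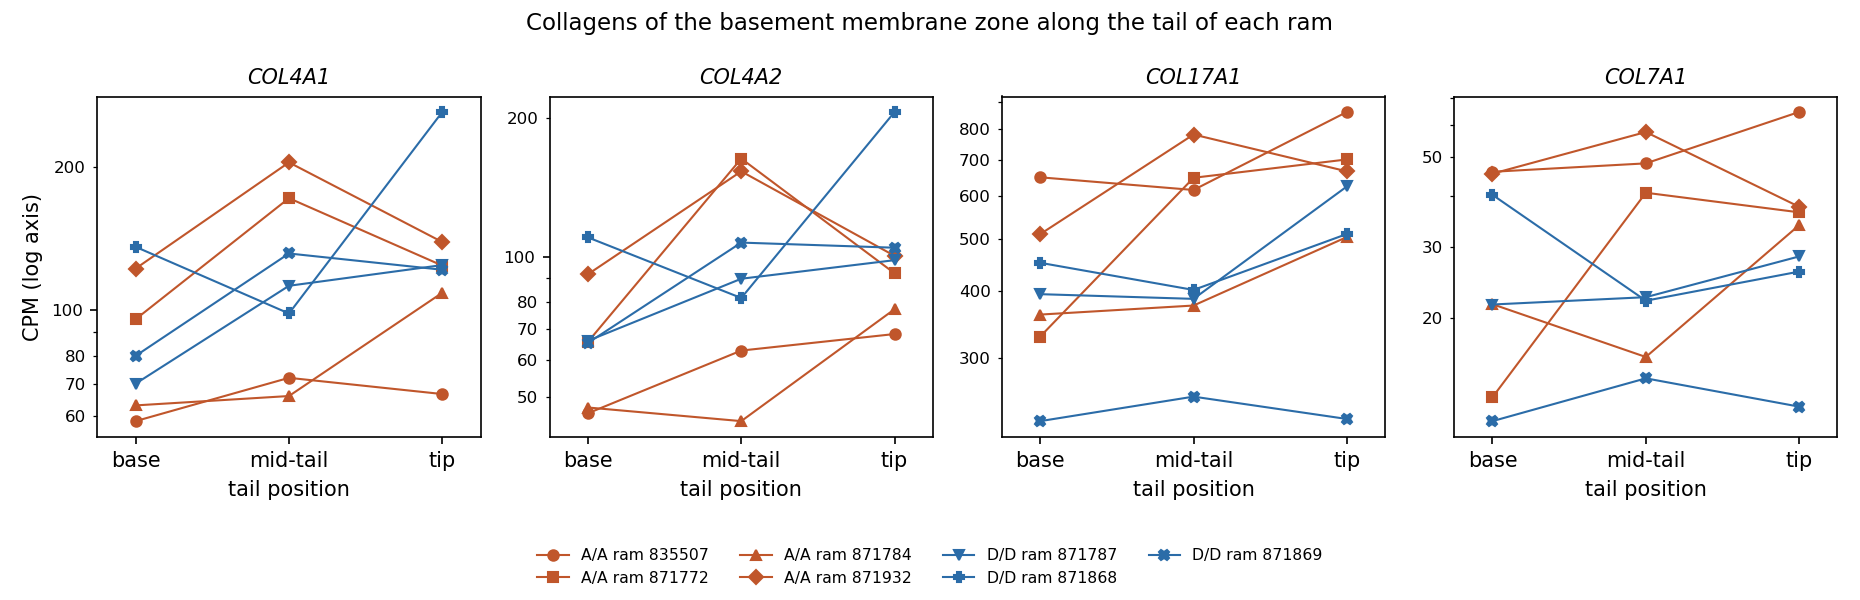
Levels in CPM (y axis, log scale) of COL4A1, COL4A2, COL17A1 and COL7A1 at the 3 tail positions (x axis), with 1 line per ram in orange for A/A and blue for D/D. All 7 lines end higher than they start for COL4A1, COL4A2 and COL17A1, none of which passed the test.

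COL19A1 rose among the FACIT collagens (chromosome 9, bases 3879035 to 4367206). Type XIX collagen is a minor collagen of basement membrane zones. It had few counts, 302 over all libraries, and stood at 0.619, 0.0939, 0.310 and 0.241 CPM in the A/A rams and 0.246, 0.332 and 0.0619 CPM in the D/D rams at the base. It stood at 0.648, 0.402, 0.557 and 0.585 CPM in the A/A rams and 0.427, 0.486 and 0.173 CPM in the D/D rams at the mid-tail. It stood at 1.38, 0.804, 1.42 and 0.622 CPM in the A/A rams and 0.681, 0.477 and 0.109 CPM in the D/D rams at the tip. All 7 rams were higher at the tip than at the base, and the D/D ram 871869 was the lowest at each position. The log2 fold change was 1.49 ± 0.29 (SE) with an edgeR adjusted p of 0.00630, and the call was made in all 7 fits that left out 1 ram (log2 fold change 1.30 to 1.66). Taken alone, the base did not pass the filter on low counts for COL19A1, while the mid-tail and the tip did. COL19A1 thus entered the test through the positions where it was higher, which limits this call. Its neighbour COL9A1, a cartilage FACIT 1091 bases away, had a log2 fold change of 0.25 ± 0.24 (SE) (edgeR adjusted p 0.632).

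COL12A1, a FACIT collagen of type I fibrils in dense connective tissue such as tendon and fascia, was just outside the threshold. Its levels were 288, 368, 214 and 203 CPM in the A/A rams and 187, 241 and 264 CPM in the D/D rams at the base. Its levels were 419, 476, 404 and 455 CPM in the A/A rams and 269, 352 and 194 CPM in the D/D rams at the tip. The tip was higher in 6 of 7 rams, and the exception was the D/D ram 871869. COL12A1 had a log2 fold change of 0.52 ± 0.15 (SE) with an edgeR adjusted p of 0.0520, and without ram 871869 it was 0.66 with an adjusted p of 0.0116, in a range of 0.0116 to 0.176 over the 7 fits that left out 1 ram. Tendon markers were higher at the tip as well. All 5 had log2 fold changes above 0 and 4 of them rose, COMP by 3.03, TNMD by 1.85, THBS4 by 0.89 and MKX by 1.10 on the log2 scale. Their summed level was 17.1 to 38.0 CPM at the base and 45.4 to 99.7 CPM at the tip of the A/A rams, and 23.0 to 29.7 CPM and 47.1 to 83.2 CPM in the D/D rams. Their part in the level of COL12A1 was not tested. The other FACIT collagens tested had log2 fold changes of 0.02 for COL14A1, 0.09 for COL16A1, 0.26 for COL21A1 and 0.76 for COL22A1, with edgeR adjusted p-values from 0.349 to 0.965.

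COL15A1 had the smallest p of all collagens (chromosome 2, bases 48806587 to 48908720). Type XV collagen, a multiplexin, links basement membranes of vessels, muscle and nerves to the fibrils around them. It was 57.0, 109, 71.4 and 83.7 CPM in the A/A rams and 79.3, 99.4 and 117 CPM in the D/D rams at the base. It was 84.4, 145, 108 and 151 CPM in the A/A rams and 121, 108 and 151 CPM in the D/D rams at the mid-tail. It was 86.5, 147, 126 and 164 CPM in the A/A rams and 113, 178 and 121 CPM in the D/D rams at the tip. COL15A1 was above the base at the mid-tail in 7 of 7 rams and at the tip in 7 of 7 rams, by little in the D/D ram 871869, and the levels of the positions overlapped between rams. The log2 fold change at the tip was 0.61 ± 0.11 (SE) with an edgeR adjusted p of 0.00405, and the call was made in all 7 fits that left out 1 ram (log2 fold change 0.55 to 0.69). Of 6 endothelial markers, 4 had a log2 fold change below 0 and 0 were called by edgeR, with 1 at an unadjusted p under 0.05. COL18A1, the other multiplexin, had a log2 fold change of 0.16 ± 0.19 (SE) with an edgeR adjusted p of 0.718.

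COL6A5 and COL6A6, neighbours on chromosome 1 with 42467 bases between them, passed the test in opposite directions. Both encode further chains of type VI collagen. COL6A5 was 3.01, 4.65, 0.775 and 3.86 CPM in the A/A rams and 0.533, 2.49 and 3.37 CPM in the D/D rams at the base. COL6A5 was 9.30, 9.23, 3.95 and 14.8 CPM in the A/A rams and 1.49, 7.46 and 3.12 CPM in the D/D rams at the tip. It was higher at the tip in 6 of 7 rams, all but the D/D ram 871869, and rose with a log2 fold change of 1.41 ± 0.29 (SE) (edgeR adjusted p 0.00732), in all 7 fits that left out 1 ram. COL6A6 was 0.796, 4.18, 4.53 and 3.22 CPM in the A/A rams and 4.51, 2.89 and 8.23 CPM in the D/D rams at the base. COL6A6 was 0.659, 0.998, 0.569 and 1.41 CPM in the A/A rams and 0.596, 3.31 and 1.93 CPM in the D/D rams at the tip. It was lower at the tip in 6 of 7 rams, all but the D/D ram 871868, and fell with a log2 fold change of -1.66 ± 0.37 (SE) (edgeR adjusted p 0.0130). That call was lost without the A/A ram 871784 (adjusted p 0.0525), the D/D ram 871787 (adjusted p 0.0623) or the D/D ram 871869 (adjusted p 0.0544). The libraries of a ram and position differed by more than 2-fold in 6 of 20 pairs for COL6A5 and in 7 of 20 pairs for COL6A6. The ratio of COL6A6 to COL6A5 varied 119-fold over the 21 ram sums.

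The main chains of type VI collagen did not pass the test. COL6A1 and COL6A2 were lower at the tip in 6 of 7 and 7 of 7 rams, with log2 fold changes of -0.48 ± 0.18 (SE) and -0.43 ± 0.19 (SE) (edgeR adjusted p 0.148 and 0.241), and COL6A3 had one of 0.08 ± 0.16 (SE) (edgeR adjusted p 0.837). Of the other collagens, COL28A1, known from the surface of peripheral glia, had a log2 fold change of -1.47 ± 0.45 (SE) with an edgeR adjusted p of 0.0698, and passed the test without the A/A ram 835507 (adjusted p 0.0294) or without the D/D ram 871868 (adjusted p 0.0409), in a range of 0.0294 to 0.219 over the 7 fits that left out 1 ram. Beside this, 5 of 6 Schwann cell markers had log2 fold changes below 0 and 1 fell. The summed level of the 6 was 92.8 to 138 CPM at the base and 74.7 to 158 CPM at the tip of the A/A rams, and 120 to 157 CPM and 75.7 to 102 CPM in the D/D rams. The part of Schwann cells in the level of COL28A1 was not tested. COL8A1, COL8A2, COL13A1, COL23A1 and COL26A1 had log2 fold changes between -0.24 and 0.38 and edgeR adjusted p-values between 0.219 and 0.590.

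**Figure D4:**
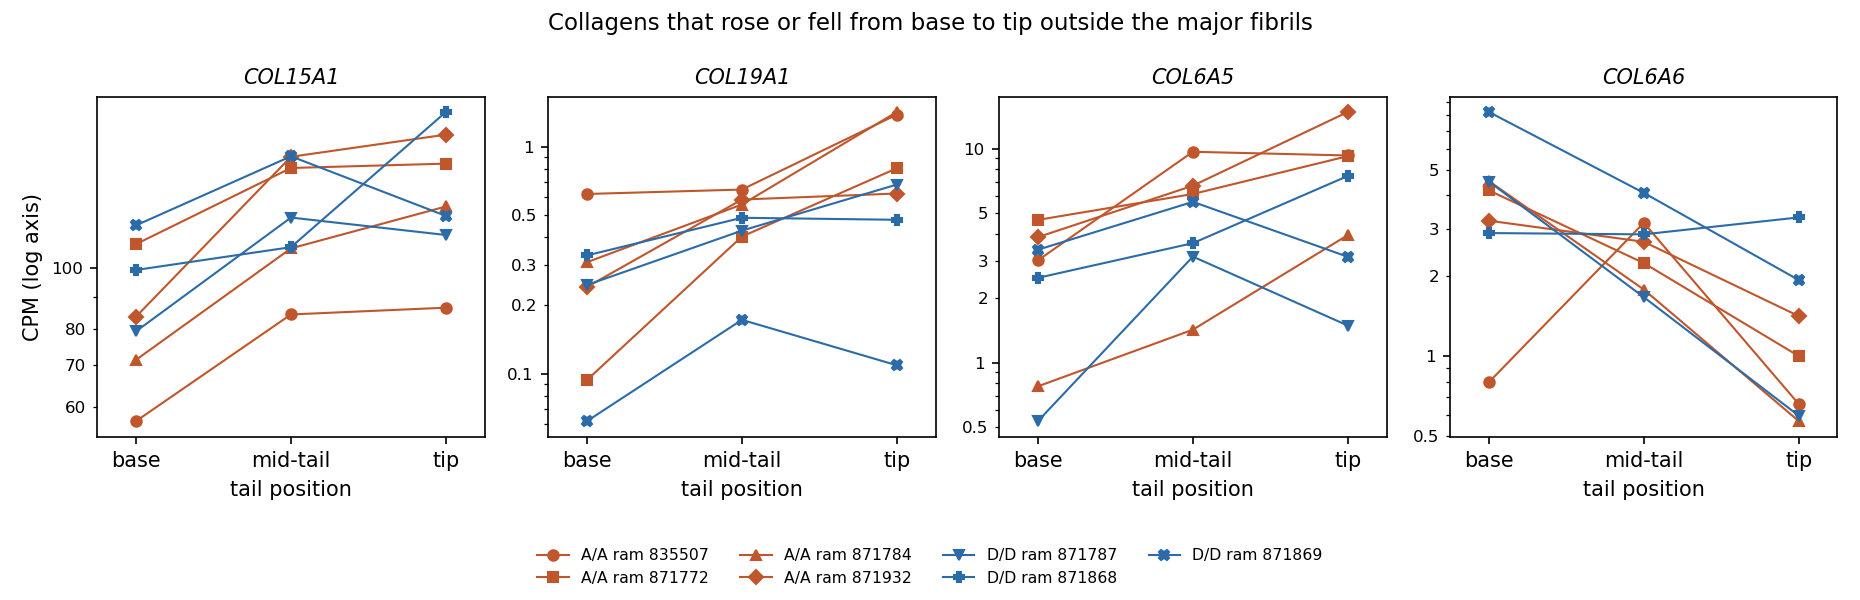
Levels in CPM (y axis, log scale) of COL15A1, COL19A1, COL6A5 and COL6A6 at the 3 tail positions (x axis), with 1 line per ram in orange for A/A and blue for D/D. COL15A1 and COL19A1 are higher at the tip than at the base in all 7 rams, and COL6A6 is lower in 6 of 7.

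At the mid-tail, none of the 39 collagens passed the test over 7 rams, against 0.163% of all genes, while 11 of them and 11.7% of all genes had an unadjusted edgeR p under 0.05. DESeq2 called 2 collagens and 1.48% of all genes on the ram sums, and 5 collagens and 4.54% of all genes on single libraries. COL15A1 had the smallest p, with a log2 fold change of 0.50 ± 0.11 (SE) and an edgeR adjusted p of 0.0743, and COL6A5 followed with 1.04 ± 0.29 (SE) (edgeR adjusted p 0.151) and higher levels in 7 of 7 rams. COL1A1 was lower than at the base in 5 of 7 rams, with a log2 fold change of -0.88 ± 0.34 (SE) (edgeR adjusted p 0.323), or -0.55 without ram 835507 (adjusted p 0.441). No collagen was ordered from base to mid-tail to tip in all 7 rams. The levels of COL15A1, COL19A1 and COL24A1 followed this order upward in 5 of 7 rams, and those of COL6A6 downward in 5, COL3A1 in 4 and COL1A1 in 3. Mid-tail and tip were not tested against each other. Without ram 835507 the count at the mid-tail was 1, COL11A1.

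The comparisons within a genotype use the same rams as the comparison over 7 rams. Within the A/A rams, 4 of 39 collagens passed the test at the tip, against 1.62% of all genes, and all 4 rose. They were COL19A1 with a log2 fold change of 1.80 ± 0.36 (SE) (edgeR adjusted p 0.0215), COL6A5 with 1.71 ± 0.36 (SE) (edgeR adjusted p 0.0288), COL24A1 with 1.36 ± 0.30 (SE) (edgeR adjusted p 0.0354) and COL15A1 with 0.70 ± 0.15 (SE) (edgeR adjusted p 0.0326). Each was higher at the tip in 4 of 4 A/A rams. The call of COL19A1 is limited here as well, since its base alone did not pass the filter on low counts. COL1A1 and COL3A1 were lower in 4 of 4 A/A rams, with log2 fold changes of -1.59 ± 0.46 (SE) and -1.39 ± 0.38 (SE) (edgeR adjusted p 0.0997 and 0.0862). Without ram 835507 these were -0.93 and -0.85 (adjusted p 0.330 and 0.271). An unadjusted edgeR p under 0.05 was found for 14 collagens and 14.5% of all genes, and DESeq2 called 13 collagens and 4.42% of all genes on the ram sums and 13 collagens and 9.61% of all genes on single libraries. Without the ram as a block edgeR called 0 collagens and 0.0946% of all genes. Without ram 835507 the count of 4 was 2. COL19A1 kept the call, COL6A5, COL24A1 and COL15A1 lost it, and COL6A6 was newly called as lower at the tip (edgeR adjusted p 0.0452). The count was 1 without ram 871772, 1 without ram 871784, 0 without ram 871932 and 2 without the D/D ram 871787, whose spread enters the same fit. At the A/A mid-tail none of 39 passed, against 0.0263% of all genes, while 13 of them and 10.5% of all genes had an unadjusted edgeR p under 0.05. DESeq2 called 1 collagen and 0.773% of all genes on the ram sums there, and 7 collagens and 4.47% of all genes on single libraries.

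Within the D/D rams, none of the 39 collagens passed the test at the tip, against 0.583% of all genes. Of the collagens, 7 had an unadjusted edgeR p under 0.05, against 12.3% of all genes. DESeq2 called 0 collagens and 2.77% of all genes on the ram sums, and 5 collagens and 7.25% of all genes on single libraries. COL15A1 had a log2 fold change of 0.49 ± 0.18 (SE) (edgeR adjusted p 0.240), COL4A1 one of 0.80 ± 0.26 (SE) (edgeR adjusted p 0.179) and COL11A1 one of 1.31 ± 0.48 (SE) (edgeR adjusted p 0.248), each higher at the tip in 3 of 3 D/D rams. COL1A1, COL1A2, COL3A1 and COL5A1 were lower in 3 of 3, with log2 fold changes from -0.90 to -0.59 and edgeR adjusted p-values from 0.392 to 0.548. COL11A1 passed the test in 1 of the 7 fits that left out 1 ram, the one without the A/A ram 835507. Its edgeR adjusted p was 0.0376 there, in a range of 0.0376 to 0.721. That fit holds the same D/D rams, so the log2 fold change was again 1.31, while the spread shared with the A/A rams changed. At the D/D mid-tail none of 39 collagens and 0% of all genes passed, while 4 collagens and 6.77% of all genes had an unadjusted edgeR p under 0.05 and DESeq2 called 0 collagens and 0.21% of all genes on the ram sums and 0 collagens and 1.05% of all genes on single libraries.

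The change from base to tip was not shown to differ between the genotypes. The interaction term, the D/D change minus the A/A change, passed the test for none of 39 collagens and 0% of all genes, while 3 collagens and 6.09% of all genes had an unadjusted edgeR p under 0.05. DESeq2 called 0 collagens and 0.0788% of all genes on the ram sums and 1 collagen, COL23A1, and 0.596% of all genes on single libraries. COL23A1, a transmembrane collagen, had the smallest p. It was 1.15, 1.83, 1.61 and 1.81 CPM in the A/A rams and 2.46, 2.79 and 3.12 CPM in the D/D rams at the base. It was 3.92, 3.38, 3.09 and 2.78 CPM in the A/A rams and 2.51, 2.07 and 2.00 CPM in the D/D rams at the tip. All 4 A/A rams were higher at the tip and 2 of 3 D/D rams lower. The difference of the log2 fold changes was -1.38 ± 0.43 (SE), with an edgeR p of 0.00573 and an adjusted p of 0.717. COL24A1 and COL27A1 followed with differences of -1.14 ± 0.47 (SE) and -0.72 ± 0.33 (SE) (edgeR adjusted p 0.787 for each), and without ram 835507 that of COL27A1 was -0.39. For COL1A1 the difference was 0.69 ± 0.68 (SE) (edgeR adjusted p 0.860) and for COL15A1 it was -0.22 ± 0.23 (SE) (edgeR adjusted p 0.872).

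Between the genotypes at the position of the same name, no collagen and no other gene passed the edgeR test. HOXB13 did not pass at the tip either, with 6.53, 5.32, 3.45 and 4.15 CPM in the A/A rams and 1.06, 0.477 and 0.254 CPM in the D/D rams. The paper reports HOXB13 as higher in A/A there. A count of 0 from 4 rams against 3 therefore does not show that the genotypes are alike. The paper holds that only the base allows a direct comparison, since mid-tail and tip lie farther from the base in D/D rams. At the mid-tail and tip, genotype and distance from the base therefore cannot be told apart. The change from base to tip likewise spans a longer tail in the D/D rams. At the base, 0 of 38 collagens and 0% of all genes were called, with 1 collagen and 3.2% of all genes at an unadjusted edgeR p under 0.05, and DESeq2 called 0 collagens and 0.101% of all genes. That collagen was COL23A1, whose 4 A/A values all lay below the 3 D/D values, and at the base the values did not overlap for 1 of 38 collagens and 4.71% of all genes (log2 fold change of A/A against D/D -0.80 ± 0.32 (SE), edgeR adjusted p 1.00). COL11A1 and COL2A1 followed with log2 fold changes of 0.77 ± 0.38 (SE) and -0.97 ± 0.61 (SE) (edgeR adjusted p 1.00 for each). At the mid-tail, 0 of 39 collagens and 0% of all genes were called, with 5 collagens and 5.63% of all genes at an unadjusted edgeR p under 0.05, and DESeq2 called 0 collagens and 0.172% of all genes. COL4A4, COL17A1 and COL7A1 had the smallest p there, with log2 fold changes of 1.12 ± 0.39 (SE), 0.81 ± 0.29 (SE) and 1.06 ± 0.39 (SE) (edgeR adjusted p 0.848 for each). The A/A and D/D values did not overlap for 2 of 39 collagens, COL12A1 and COL24A1, against 8.17% of all genes.

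At the tip, 0 of 38 collagens and 0% of all genes were called, with 6 collagens and 10.2% of all genes at an unadjusted edgeR p under 0.05, and DESeq2 called 0 collagens and 0.364% of all genes. COL12A1 had the smallest p, and its 4 A/A values at the tip, 419, 476, 404 and 455 CPM, all lay above the 3 D/D values, 269, 352 and 194 CPM. The log2 fold change was 0.70 ± 0.21 (SE) with an edgeR adjusted p of 0.458. COL16A1, a FACIT collagen of skin, was 90.3, 90.3, 69.7 and 83.2 CPM in the A/A rams and 57.2, 69.6 and 49.9 CPM in the D/D rams at the tip. These values did not overlap, but the lowest A/A ram and the highest D/D ram nearly met (log2 fold change 0.51 ± 0.16 (SE), edgeR adjusted p 0.458). COL27A1, a fibrillar collagen of developing cartilage, was 31.7, 17.0, 15.4 and 17.6 CPM in the A/A rams and 10.4, 12.03 and 11.4 CPM in the D/D rams. Ram 835507 was the highest and the groups did not overlap (log2 fold change 0.87 ± 0.28 (SE), edgeR adjusted p 0.458), and without it the log2 fold change was 0.57. In 6 of 38 collagens the A/A and D/D values did not overlap at the tip, the others being COL4A6, COL7A1 and COL23A1, against 15.2% of all genes.

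**Figure D5:**
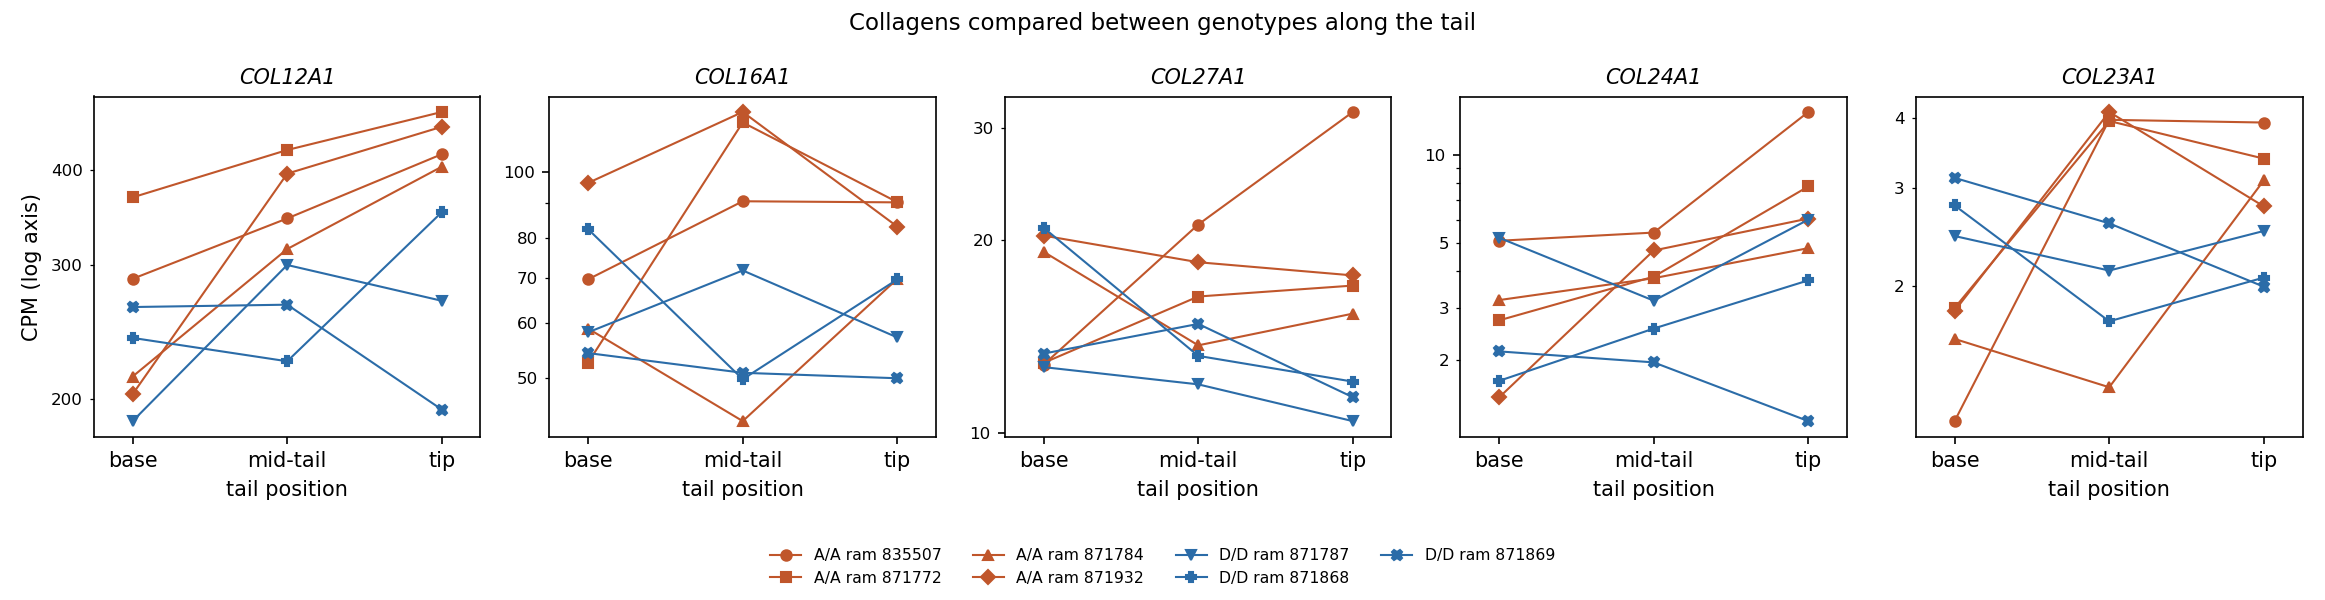
Levels in CPM (y axis, log scale) of COL12A1, COL16A1, COL27A1, COL24A1 and COL23A1 at the 3 tail positions (x axis), with 1 line per ram in orange for A/A and blue for D/D. At the tip the lowest A/A value of COL12A1 is 404 CPM and the highest D/D value is 352 CPM, a difference that did not pass the test.

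Genes that make, process or hold collagen were followed beside the collagens. Over all genes, 53.2% had a log2 fold change below 0 at the tip over 7 rams and 5.09% were called, which is the background of the counts that follow. Of 20 genes of collagen synthesis, folding and modification, 18 had a log2 fold change below 0 at the tip over 7 rams, with a median of -0.15. Of the 20, 1 fell, a share near the background. It was CREB3L1, a transcription factor that drives procollagen synthesis, with a log2 fold change of -0.79 ± 0.17 (SE) (edgeR adjusted p 0.00994). The genes of folding and modification themselves were not called. SERPINH1, the collagen chaperone, had one of -0.35 ± 0.15 (SE) (edgeR adjusted p 0.2002) and PLOD3, a lysyl hydroxylase, one of -0.38 ± 0.15 (SE) (edgeR adjusted p 0.176).

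Of 13 genes of procollagen processing and cross-linking, 11 were below 0, with a median of -0.19, and 3 fell. LOXL4, a lysyl oxidase that cross-links collagen, was 7.17, 14.7, 24.8 and 9.57 CPM in the A/A rams and 7.91, 6.31 and 8.57 CPM in the D/D rams at the base. It was 1.35, 1.52, 1.42 and 1.33 CPM in the A/A rams and 1.70, 2.07 and 0.654 CPM in the D/D rams at the tip. The ranges of the base and the tip did not overlap. LOXL4 fell with a log2 fold change of -2.85 ± 0.30 (SE) (edgeR adjusted p 3.34e-05), and also passed the test in A/A (-3.23, edgeR adjusted p 0.00181), in D/D (-2.32, edgeR adjusted p 0.0345) and at the mid-tail over 7 rams (-1.79, edgeR adjusted p 0.0101). ADAMTS2, which removes the amino-terminal propeptide of types I, II and III procollagen, was 22.6, 38.1, 36.4 and 26.9 CPM in the A/A rams and 28.7, 24.0 and 26.5 CPM in the D/D rams at the base. It was 7.58, 19.4, 12.8 and 16.0 CPM in the A/A rams and 10.2, 17.6 and 11.04 CPM in the D/D rams at the tip. It was lower at the tip in every ram and fell with a log2 fold change of -1.14 ± 0.19 (SE) (edgeR adjusted p 0.00167). PCOLCE2, an enhancer of the carboxy-terminal protease, fell with -1.94 ± 0.38 (SE) (edgeR adjusted p 0.00572).

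Of 10 small proteoglycans that bind collagen, 7 were below 0 and PODN fell with a log2 fold change of -1.12 ± 0.25 (SE) (edgeR adjusted p 0.0148), while DCN, the decorin gene, had one of -0.46 ± 0.17 (SE) (edgeR adjusted p 0.144). Of 6 tested collagenases and gelatinases, 3 were below 0 and MMP2, the gelatinase of fibroblasts, fell with -1.15 ± 0.20 (SE) (edgeR adjusted p 0.00295). Of 9 collagen receptors, 5 were below 0 and 0 were called by edgeR, with 4 at an unadjusted p under 0.05, and ITGA11, an integrin chain that binds type I collagen, had the smallest p (-0.73 ± 0.22 (SE), edgeR adjusted p 0.0629). Of 14 other genes of the basement membrane, 10 were above 0 and 2 rose, among them LAMA2, a laminin chain, with 0.82 ± 0.14 (SE) (edgeR adjusted p 0.00205). Of 8 fibroblast markers, 5 were below 0 and 3 fell, PI16 by 1.40, MFAP5 by 0.82 and FBLN1 by 0.66 on the log2 scale. DPT, the dermatopontin gene, had a log2 fold change of -0.60 (edgeR adjusted p 0.112). The markers did not all move together, since PDGFRA, PDGFRB and TWIST2 had higher mean levels at the tip in both genotypes. Their log2 fold changes within the A/A rams were 0.66, 0.61 and 0.72 (edgeR adjusted p 0.152, 0.265 and 0.078). In the D/D rams their mean levels went from 63.03 to 71.04 CPM, 43.71 to 56.6 CPM and 10.02 to 10.72 CPM. The summed level of the 8 was 462 to 856 CPM at the base and 379 to 659 CPM at the tip of the A/A rams, and 656 to 777 CPM and 361 to 606 CPM in the D/D rams. The part of fibroblasts in the levels of the fibrillar collagens was not tested.

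Among the markers of the other cell types that tail skin could hold, 4 of 8 cartilage markers had enough counts to be tested and HAPLN1, a link protein of cartilage matrix, rose by 1.72 on the log2 scale, beside the low level of COL2A1 and COL9A1. Of 6 smooth muscle and pericyte markers RGS5 rose, of 6 adipocyte markers CIDEC fell, and of 5 tested immune cell markers CSF1R fell. From base to tip, median summed levels of the smooth muscle and pericyte list went from 1133 to 1239 CPM in A/A and from 1400 to 1210 CPM in D/D. Those of the immune cell list went from 65.4 to 50.0 CPM and from 54.1 to 31.8 CPM. Those of the adipocyte list went from 717 to 604 CPM and from 648 to 685 CPM. Most of these adipocyte sums came from FABP4, whose mean was higher at the tip, with 481 and 510 CPM in A/A and 394 and 621 CPM in D/D. In D/D the means of ADIPOQ (261 and 32.1 CPM), PLIN1 (23.8 and 4.48 CPM), LEP, CIDEC and LPL were lower at the tip. In A/A those of ADIPOQ (207 and 106 CPM), PLIN1 and CIDEC were lower, and those of LEP and LPL slightly higher. Of 5 tested bone markers and 5 tested skeletal muscle markers 0 passed the edgeR test and 0 had an unadjusted p under 0.05.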

How the data were processed

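Per the labels and the methods of the study, RNA of tail skin was made into libraries with the CorALL kit after oligo(dT) selection, ContextMap 2 aligned reads to ARS-UI_Ramb_v3.0 by means of BWA, and reads were counted on the sense strand per RefSeq gene with featureCounts. FastQC 0.11.9 is named in the submitters' processing notes. The authors deposited raw counts, not normalized. The unit check took the tip columns for estimated counts because of their names, but the deposited tip values are whole counts like the others, so rounding changed nothing. Strand-specific counting keeps overlapping genes on opposite strands apart. All 4 A/A rams that the labels list were used.

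Counts of the libraries of each ram at each place were added to give 21 ram sums, so libraries of 1 ram and place were not counted as replicates. In the comparisons of positions, p-values measure how the changes within a ram vary from ram to ram. In the genotype comparisons at 1 position, they measure the spread of levels between rams. Genes with low counts were removed with filterByExpr, libraries were scaled with TMM, and edgeR 4.0.16 in R 4.3.3 fitted quasi-likelihood models. Positions were compared with a block for the ram, and genotypes at 1 position with none. Differences with a Benjamini-Hochberg adjusted p under 0.05 over all genes tested were called, as rose or fell. Standard errors were computed from the log2 fold change and the test statistic. The ram is the same animal at all positions, and 21 of 21 pairs of sums of 1 ram deviated together (correlation 0.143 to 0.819). DESeq2 1.42.0 on ram sums and on single libraries, RLE scaling with edgeR, no filter, no block and leaving out each ram were the alternatives. Of the fits, only that of edgeR over 7 rams was tried on simulated counts, for the tip against the base. Exon lengths were not used here, so the 3 highest genes of a class per kilobase were not named. Named were the collagens called, the 10 with the smallest p over 7 rams at the tip, a list of structural collagens, the 3 with the smallest p in each genotype comparison and the interaction, and of each other list the called genes or those with the smallest p. Other collagens were named after their values were seen. Values of 2 listed genes are not reported here. The members and lists were chosen with earlier results of these data known. Coordinates of all 43 collagens come from RefSeq genes on that build.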

Additional observations from a re-analysis of the deposited data

Results flagged for a closer look

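In 10 of 117 A/A groups, each 1 collagen at 1 position, 1 ram lay farther from the others than Dixon's 95% critical value for 4 samples. Chance gives about 1 in 20 such groups, and the groups are not independent because the rams are shared. The D/D groups hold 3 rams and were not tested.

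The A/A ram 835507 gave 9 of the 10 values. Its tip was low for COL1A1 (441 CPM), COL1A2 (463 CPM), COL3A1 (292 CPM), COL5A2 (85.0 CPM) and COL11A1 (4.38 CPM), and high for COL7A1 (64.5 CPM). At the mid-tail it was low for COL11A1 (5.30 CPM) and COL4A4 (2.39 CPM), and at the base it was low for COL6A2 (267 CPM). The A/A ram 871784 was low for COL23A1 at the mid-tail (1.32 CPM).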

How the results depend on the processing

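The counts of called collagens depended on the test and the block. DESeq2 on ram sums called 14 collagens over 7 rams at the tip (7.99% of all genes), 13 in A/A at the tip (4.42%), 2 over 7 rams at the mid-tail (1.48%) and 1 in A/A at the mid-tail (0.773%). DESeq2 on single libraries called 17 (14.3%), 13 (9.61%), 5 (4.54%) and 7 (4.47%) in these comparisons, 5 in D/D at the tip (7.25%) and 1 for the interaction (0.596%). Without the filter on low counts 11 were called over 7 rams at the tip (3.67%). Without the replicate block 0 were called over 7 rams at the tip (0.725%) and 0 in A/A at the tip (0.0946%). When 1 ram was left out the counts ranged from 4 to 9 over 7 rams at the tip, 0 to 4 in A/A at the tip, 0 to 1 in D/D at the tip and 0 to 1 over 7 rams at the mid-tail. The other counts, those of all genotype comparisons included, kept their size, and a count of 0 from 4 rams against 3 says nothing on stability.

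Over the named collagens, 817 alternative values kept their direction and side of the threshold, 56 passed it newly, 37 no longer passed it and 8 changed sign, each of them when 1 ram was left out. With 1 ram left out, the log2 fold change over 7 rams at the tip ranged from -0.052 to 0.086 for COL14A1 (below 0 without the A/A ram 871772, at -0.019, the D/D ram 871787, at -0.012, the D/D ram 871868, at -0.036, or the A/A ram 871932) and from -0.029 (without ram 871868) to 0.18 for COL6A3. That of COL11A1 in A/A ranged from -0.20 (without ram 871784; -0.16 without ram 871932) to 0.96, and that of COL24A1 in D/D from -0.20 (without ram 871868) to 0.59. None of the values below 0 passed the test. The cause of these changes was not tested. Values of single collagens were recomputed for the comparisons over 7 rams and for the tip within a genotype, and in the genotype comparisons and the interaction for the 3 with the smallest p. They were not recomputed for the remaining collagens or for the other gene lists. The comparison of levels by coding length was not run. Low counts limit COL19A1, with 302 counts in all and a base that did not pass the filter by itself, and the 4 collagens that were not tested.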
